A study of Mus musculus with 28 samples.

Results

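The histone genes of the Hist clusters are the genes of the 7 deposited comparison tables whose name begins with Hist1h, Hist2h, Hist3h or Hist4h, 68 of 22919 genes listed. By histone type, 6 encode H1, 18 H2A, 19 H2B, 12 H3 and 13 H4. By cluster, 54 belong to Hist1 on chromosome 13, 10 to Hist2 on chromosome 3, 3 to Hist3 on chromosome 11 and 1 to Hist4 on chromosome 6. The authors' tables gave 6 of them a mean count of 0 (Hist1h2ap, Hist1h2bq, Hist1h2br, Hist2h2aa1, Hist2h2aa2 and Hist2h3c2), so 62 were tested.

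The study measured new RNA synthesis by Bru-seq, in which living cells are given bromouridine and the RNA made during the labelling is isolated and sequenced with its strand. Forebrain cells of CD1 mouse embryos at embryonic day 18 were grown as mixed cultures of neurons, astrocytes and oligodendrocyte precursors. Each replicate pooled the cortices and hippocampi of a set of embryos matched for sex ratio. Bromouridine was present at 2 mM for the last 20 min of a 4 h treatment. All cultures carried a lentivirus added on day 14 in vitro and were treated on day 17. The shCtrl arm carried a control short hairpin RNA and the shRai1 arm one against Rai1, which encodes a chromatin-binding nuclear protein. Each arm received water as vehicle, 1 µM tetrodotoxin (TTX, a blocker of voltage-gated sodium channels that silences action potentials) or 20 µM bicuculline (BIC, a blocker of inhibitory GABA-A receptors that raises network activity). The 16 libraries fall into 6 groups, with 2 libraries each for shCtrl vehicle and shCtrl BIC and 3 for each other group. The vehicle group of shCtrl holds replicates 1 and 2 and its BIC group replicates 2 and 3, so these groups hold different replicates. No value per library was used here, so every error below is the standard error (SE) of the authors' fit over libraries, and the depth of each library is unknown.

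Canonical histones package DNA: H2A, H2B, H3 and H4 form the nucleosome core, and H1 binds the linker DNA between nucleosomes. Their genes are short, lack introns, sit in clusters and are transcribed mainly while a cell copies its DNA. Their messages normally end in a stem-loop, bound by SLBP and cut by a machinery containing the U7 snRNP, instead of a poly(A) tail. Neurons no longer divide, while astrocytes and oligodendrocyte precursors in culture can. Hist1h1b encodes linker histone H1.5, and whether it marks cells in S phase in these cultures was not tested. The genes in the tables were 312 to 37455 bp long with a median of 487 bp, the longest entries being Hist1h2be and Hist1h2bc (8282 bp).

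Promoters of the genes on which the results turn are shown first, since histone types carry different short elements there. The 150 bases before the start of each gene are given 5′ to 3′ on the gene's strand, from RefSeq on build GRCm38.p6, with matches on either strand to 4 motifs in capitals. The motifs are the H1 box AAACACA, the octamer ATTTGCAT, the CCAAT box CCAAT and the TATA box TATAAA, and no match overlaps another in the sequences shown. The H1 genes Hist1h1b (chr13:21780626-21780775, minus strand), Hist1h1d (chr13:23554882-23555031, plus) and Hist1h1e (chr13:23622559-23622708, minus) are shown because they were lower in shRai1 vehicle, beside Hist1h1a (chr13:23763518-23763667, plus), the H1 gene whose window lacks the H1 box.
Hist1h1b: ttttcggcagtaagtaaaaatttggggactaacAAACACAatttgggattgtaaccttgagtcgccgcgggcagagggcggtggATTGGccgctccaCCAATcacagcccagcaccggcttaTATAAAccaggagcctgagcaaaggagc
Hist1h1d: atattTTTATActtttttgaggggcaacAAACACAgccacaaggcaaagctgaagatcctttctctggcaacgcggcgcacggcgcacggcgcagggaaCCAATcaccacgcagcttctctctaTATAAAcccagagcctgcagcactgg
Hist1h1e: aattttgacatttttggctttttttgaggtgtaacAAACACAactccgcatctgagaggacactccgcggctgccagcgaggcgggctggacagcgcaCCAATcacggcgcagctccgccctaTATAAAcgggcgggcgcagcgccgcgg
Hist1h1a: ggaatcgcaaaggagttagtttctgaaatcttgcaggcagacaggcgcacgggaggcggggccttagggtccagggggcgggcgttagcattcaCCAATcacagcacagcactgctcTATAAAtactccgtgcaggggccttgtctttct
Over a window from 250 bases before to 50 after the start, the H1 box was found in 5 of 6 H1 promoters (83.3%). It was also found in 2 of 17 H2A (11.8%) and 2 of 15 H2B promoters (13.3%), and in 0 of 10 H3 and 0 of 12 H4 promoters. Of all 32851 promoters, 7.18% held it. All 6 H1 genes were below 0 for shRai1 against shCtrl in vehicle. Hist1h1a, without the box, had a log2 difference of -0.60 there and was not called. Hist1h1c and Hist1h1t hold the box, had a median of -0.60 and were not called either. Whether the box goes with this difference was not tested. In Hist1h1b, Hist1h1d and Hist1h1e the box lay 117, 122 and 115 bases before the start, and the CCAAT box nearest the start lay 53, 51 and 52 bases before it.

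Promoters of core histone genes follow. Hist1h3e (chr13:23562386-23562535, minus) and Hist1h3g (chr13:23535268-23535417, plus) encode H3, and Hist1h4k (chr13:21750554-21750703, minus) and Hist4h4 (chr6:136804432-136804581, minus) encode H4. Hist1h2bg (chr13:23571250-23571399, plus) encodes H2B and Hist3h2a (chr11:58954535-58954684, plus) encodes H2A. Hist1h4k and Hist4h4 are shown together because the TTX response of the first differed between the arms and that of the second was nearly the same in both. Hist3h2a is shown for its TTX response in shCtrl, the highest of any member.
Hist1h3e: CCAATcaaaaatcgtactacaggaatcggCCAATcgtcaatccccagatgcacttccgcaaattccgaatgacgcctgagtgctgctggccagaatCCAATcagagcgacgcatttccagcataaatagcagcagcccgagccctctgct
Hist1h3g: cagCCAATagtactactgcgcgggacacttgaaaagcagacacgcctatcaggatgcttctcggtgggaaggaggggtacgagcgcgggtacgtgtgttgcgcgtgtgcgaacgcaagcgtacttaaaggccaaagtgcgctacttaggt
Hist1h4k: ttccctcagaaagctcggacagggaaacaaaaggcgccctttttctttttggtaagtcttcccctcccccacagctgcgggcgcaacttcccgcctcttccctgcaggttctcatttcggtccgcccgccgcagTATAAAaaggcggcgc
Hist4h4: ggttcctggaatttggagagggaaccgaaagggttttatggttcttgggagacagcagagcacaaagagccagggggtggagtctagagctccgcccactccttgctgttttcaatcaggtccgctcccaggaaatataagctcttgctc
Hist1h2bg: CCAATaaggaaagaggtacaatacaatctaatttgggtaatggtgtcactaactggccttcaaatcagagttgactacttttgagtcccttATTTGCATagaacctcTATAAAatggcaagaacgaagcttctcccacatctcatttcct
Hist3h2a: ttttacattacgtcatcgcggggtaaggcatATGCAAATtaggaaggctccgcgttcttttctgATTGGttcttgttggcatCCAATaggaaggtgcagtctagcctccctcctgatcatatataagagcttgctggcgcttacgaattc
The octamer was found in 7 of 17 H2A promoters and 6 of 15 H2B promoters, in 0 of the H1, H3 and H4 promoters, and in 1.74% of all promoters. CCAAT was present in every H1, H2A, H2B and H3 promoter matched and in 3 of 12 H4 promoters, against 37.4% of all promoters. TATAAA was present in 35 of 60 members (58.3%) against 13.6% of all promoters. The region of Hist1h2bg overlaps that of Hist1h2ae, which is transcribed in the opposite direction. Promoters were matched for 60 members, and a match of letters describes a sequence and shows no bound factor.

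Levels were compared per length, in FPKM (fragments per kilobase of gene, scaled to library size), which the authors give as 1 pooled value per condition with a lower and an upper bound. The FPKM columns labelled for the knockdown did not follow their names, so levels are given for shCtrl only. In shCtrl vehicle the median FPKM was 57.0 for H1, 40.1 for H2A, 41.3 for H2B, 81.2 for H3 and 213 for H4, over 6, 18, 18, 12 and 13 genes. H4 genes thus had the highest median labelling per length. Under TTX the median FPKM was 70.5, 56.9, 50.5, 99.8 and 313 in the same order, and under BIC it was 44.1, 27.5, 26.0, 53.0 and 139. In all 5 types the median was highest in TTX and lowest in BIC. Summed over the 67 genes with a value, FPKM came to 6032 for vehicle, 8854 for TTX and 4525 for BIC. These sums are uncertain, since they include genes with a mean count of 0, such as Hist2h2aa1, and genes that share an interval.

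**Figure D1:**
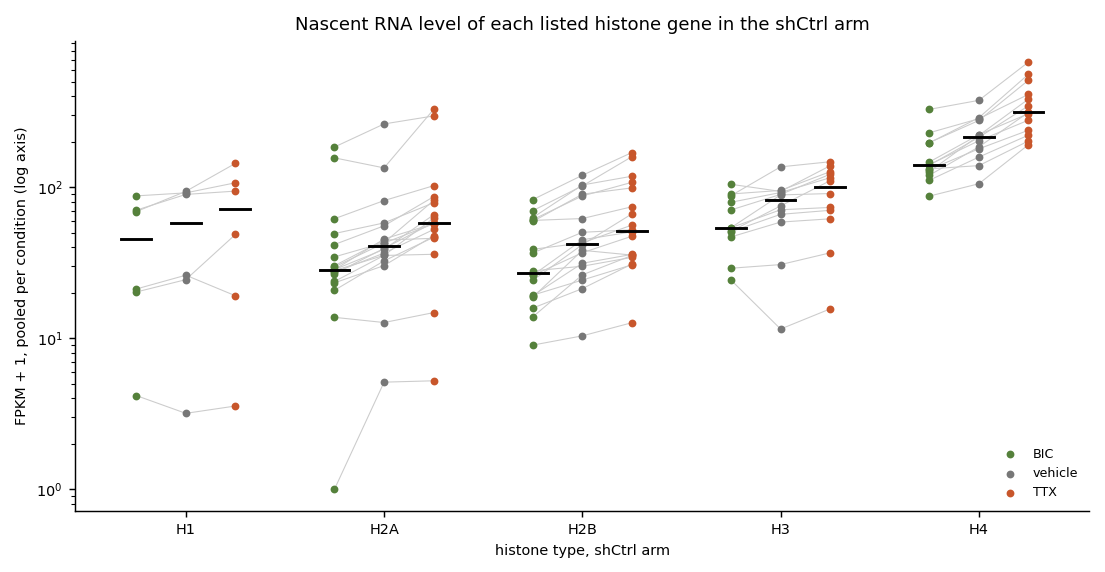
FPKM + 1 (log axis) of each histone gene in the shCtrl arm, by histone type and by condition, each point being 1 gene's pooled value and each black line the median of the type. The H4 medians of 213, 313 and 139 FPKM in vehicle, TTX and BIC stand above those of the other types.

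The 5 genes with the highest mean FPKM in shCtrl were Hist1h4d, Hist1h4n, Hist1h4m, Hist1h4c and Hist2h2aa1. Hist1h4d was at 376 FPKM in vehicle (bounds 282 to 470), at 675 with TTX (519 to 831) and at 327 with BIC (244 to 411). Hist1h4n was at 288, 560 and 196 FPKM, and Hist1h4m at 276, 511 and 197. Their TTX bounds lay above their vehicle bounds, which was so for 7 members in all, the others being Hist1h1a, Hist1h4b, Hist3h2a and Hist4h4. Hist2h2aa1 (262, 296 and 184 FPKM) is uncertain, since its interval is shared with Hist2h2aa2 and its mean count in the test tables is 0. Hist1h4m had a mean normalized count of 22.1 against 292 for Hist1h4n, although their FPKM were alike.

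Histone paralogs are nearly identical in sequence, and how the authors' counting split such reads is not given in the sources used here, so values of single paralogs are uncertain. The intervals of 6 members are shared with another member, and 6 members had an FPKM outside its own bounds. The direction from vehicle to TTX was the same in the FPKM and in the test table for 60 of 62 members, and from vehicle to BIC for 56 of 61.

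Under TTX a minority of the histone genes were called higher in shCtrl cultures, among them 10 of the 13 H4 genes. The authors' deposited DESeq2 table had 21 of 58 members higher in TTX than in vehicle and 0 lower (adjusted p under 0.05), against 11.8% of all genes higher and 14.9% lower. At an unadjusted p under 0.05, 29 were higher and 0 lower, against 12.2% and 14.1% of all genes. The median log2 change was 0.44 over the 62 tested members and 0.00 over all genes tested. Of the members 58 of 62 were above 0, as were 10878 of all 21192 genes tested. The median of the H4 genes was 0.70. The counts of the other types were 2 of 5 for H1, 3 of 13 for H2A, 4 of 17 for H2B and 2 of 10 for H3. The types were not tested against each other, and H4 genes had a median mean count of 159, against 34.3 for H2A and 38.4 for H2B. Because these are bulk cultures, more cells of a type and more RNA per cell cannot be told apart here or in the comparisons that follow.

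Single genes covered a wide range. Hist3h2a, an H2A gene outside the Hist1 cluster, went from 133 FPKM in vehicle to 327 in TTX, with a log2 change of 1.32 (SE 0.16, adjusted p 2.37e-15) in the authors' deposited table. For Hist1h4n the authors' deposited table gave 1.00 (SE 0.14, adjusted p 7.03e-11), the highest of the H4 genes in this arm. Hist1h4d and Hist1h4b both rose by 0.86 and Hist4h4 by 0.80 in the authors' deposited table. The H4 genes that missed the threshold were Hist1h4j, Hist1h4k and Hist1h4m, of which Hist1h4k had 0.42 (SE 0.17, adjusted p 0.0544) in the authors' deposited table. Among H2B genes, Hist1h2bc rose by 0.84 (SE 0.15) in the authors' deposited table. Its FPKM changed less, from 89.0 in vehicle (bounds 61.7 to 116) to 98.1 in TTX (68.2 to 128), with overlapping bounds.

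The linker histones, which bind between nucleosomes, did not move together in shCtrl. Hist1h1a (23.5 FPKM in vehicle, 47.7 in TTX) rose by 0.81 (SE 0.26) and Hist1h1d (93.0 and 143 FPKM) by 0.63 (SE 0.17) in the authors' deposited table. Hist1h1e (88.7 and 93.4 FPKM) had 0.05 and Hist1h1c (90.9 and 106 FPKM) had 0.26, neither past the threshold in the authors' deposited table. Hist1h1b, at 25.2 FPKM in vehicle and 18.1 in TTX, had -0.46 (SE 0.30, adjusted p 0.290), the lowest value of any member in the authors' deposited table.

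In the shRai1 arm most members rose under TTX. The authors' deposited table called 53 of 58 members higher and 0 lower, against 13.7% of all genes higher and 16.8% lower. At an unadjusted p under 0.05, 55 were higher and 0 lower, against 13.6% and 15% of all genes. The median log2 change was 1.05 over the 62 tested members. All 13 H4, all 10 H3 and all 5 H1 genes with an adjusted p rose, with 11 of 13 H2A and 14 of 17 H2B genes. The medians by type were 1.18 for H1, 1.21 for H2A, 0.84 for H2B, 1.12 for H3 and 1.04 for H4. Of the 53 genes, 21 (39.6%) were also called higher in shCtrl, as were 1135 (53.5%) of all 2121 genes called higher in shRai1. Conversely, the 21 genes called in shCtrl were all called in shRai1 (100%), against 62.4% of all 1820 genes called higher in shCtrl.

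Genes of each type are given by their values, and the types were not tested against each other. Hist1h1a rose by 1.65 (SE 0.24) and Hist1h1d by 1.55 (SE 0.16, adjusted p 3.9e-20) in the authors' deposited table. Hist1h1e rose by 1.18 (SE 0.19), Hist1h1b by 1.17 (SE 0.29) and Hist1h1c by 1.05 (SE 0.19) in the authors' deposited table, so that Hist1h1b had opposite signs in the arms. Among the H3 genes, Hist1h3d rose by 1.35, Hist1h3g by 1.30, Hist1h3b by 1.25 and Hist1h3e by 1.13 in the authors' deposited table. Of the H2A genes, Hist1h2ai rose by 1.32 (SE 0.23) and Hist1h2ab by 1.27 (SE 0.25) in the authors' deposited table. Hist1h4n rose by 1.49 (SE 0.13) and Hist1h2bg by 1.10 (SE 0.18) in the authors' deposited table. Hist3h2a (1.29, SE 0.14) and Hist4h4 (0.85, SE 0.17) had nearly the values they had in shCtrl, again from the authors' deposited table.

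**Figure D2:**
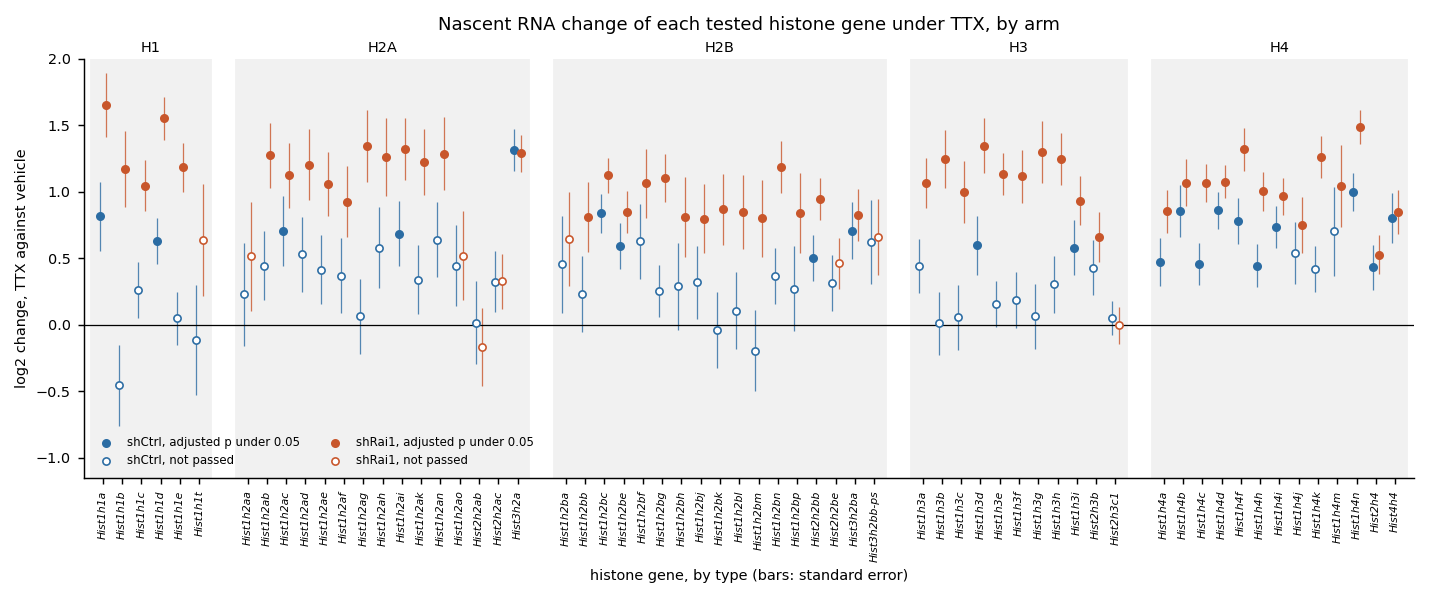
Log2 change under TTX of each tested histone gene (vertical axis) by histone type, shCtrl in blue and shRai1 in orange, with bars for the standard error and filled points for an adjusted p under 0.05. The shRai1 value is the higher one for 59 of 61 genes, and Hist3h2a is high in both arms (1.32 and 1.29).

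The arms share no library in their TTX comparisons, so the values are set side by side. The labels number the replicates alike in both arms and do not say whether equal numbers share a pool of embryos, so the arms may share pools, while the Wald tests treat their contrasts as independent. Across 61 genes Pearson's r between the TTX changes of the arms was 0.29 and Spearman's rho 0.28, as a description across genes that come from the same libraries and are not independent replicates. Averaged over the arms, 51 of 61 genes rose under TTX by a Wald test on the deposited values with Benjamini-Hochberg adjustment over 18241 genes, against 15.5% of all genes.

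Under BIC, the drug that raises activity, some histone genes fell in shCtrl cultures. The authors' deposited table called 10 of 58 members lower and 0 higher, against 17% of all genes lower and 17.4% higher, so the share called lower was near that of all genes. At an unadjusted p under 0.05, 16 were lower and 0 higher, against 16.6% and 16.4% of all genes. The median was -0.40 against 0.00 for all genes, and 57 of 62 members were below 0. H4 gave 6 of the 10, H2B 3 and H3 1, while 0 H1 and 0 H2A genes passed. Centring the changes on the median of genes with a mean count of at least 50 ended the calls of Hist1h4f (adjusted p 0.0545) and Hist1h4k (0.0729). Hist4h4, at 220 FPKM in vehicle and 126 in BIC, fell by 0.77 (SE 0.22, adjusted p 0.00172) in the authors' deposited table. Hist1h4i (213 and 139 FPKM) fell by 0.62 (SE 0.19) and Hist1h2bg (103 and 62.0 FPKM) by 0.73 (SE 0.23) in the authors' deposited table. Hist1h3e (136 and 87.1 FPKM) fell by 0.66 (SE 0.20) and Hist1h2bm by 0.99 (SE 0.34) in the authors' deposited table.

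In shRai1 histone genes were called in both directions under BIC. The authors' deposited table called 3 members higher and 6 lower of 60, against 21.3% of all genes higher and 21.3% lower. Both shares of the members were thus below those of all genes. The difference between these shares was not tested. The 3 higher ones were linker histones, Hist1h1e (0.63, SE 0.19, adjusted p 0.00339), Hist1h1c (0.53, SE 0.20) and Hist1h1d (0.42, SE 0.17) in the authors' deposited table, and all 6 H1 genes were above 0 with a median of 0.36. The medians of the core types were -0.17 for H2A, -0.10 for H2B, 0.02 for H3 and -0.24 for H4, and the types were not tested against each other. The lower ones were Hist1h4i (-0.76, SE 0.16, adjusted p 1.14e-05), Hist4h4 (-0.58), Hist2h3b (-0.56), Hist2h2bb (-0.54), Hist2h2ac (-0.54) and Hist1h4d (-0.35) in the authors' deposited table. Centring the changes on the median of genes with a mean count of at least 50 ended the calls of Hist2h2ac (adjusted p 0.0524) and Hist1h4d (0.0518). Hist1h4i, Hist2h2bb and Hist4h4 fell in both arms. Averaged over the arms, 15 of 61 genes fell under BIC and 0 rose by the Wald test, against 23.6% of all genes lower and 22.4% higher. The share called lower was thus near that of all genes. With unadjusted p-values under 0.05, 20 were lower and 0 higher, against 26.2% and 24.5% of all genes.

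**Figure D3:**
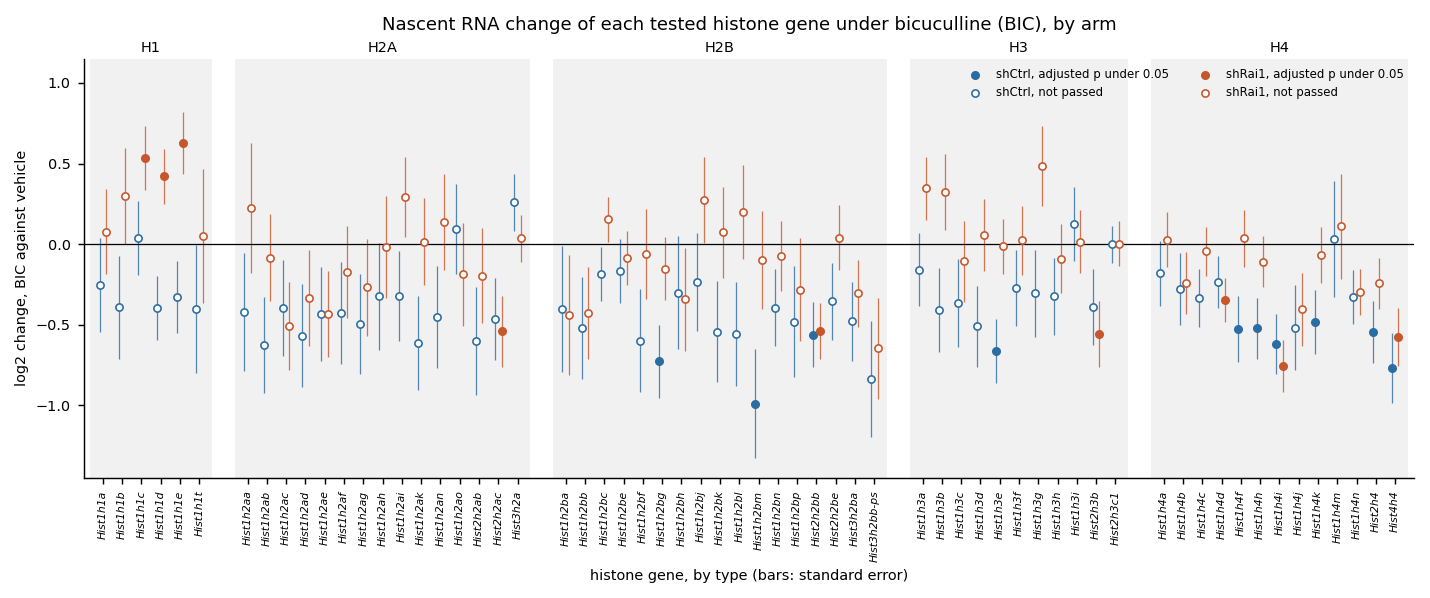
Log2 change under BIC of each tested histone gene (vertical axis) by histone type, shCtrl in blue and shRai1 in orange, with bars for the standard error and filled points for an adjusted p under 0.05. In shRai1 the H1 genes stand above 0 (median 0.36), and Hist4h4 and Hist1h4i are filled below 0 in both arms.

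The knockdown was then read within each treatment. New RNA of Rai1, the targeted gene, was not called lower in the libraries labelled shRai1. By the authors' deposited tables its log2 difference from shCtrl was 0.16 in vehicle (SE 0.073, adjusted p 0.357). It was -0.12 with TTX and 0.03 with BIC. Bru-seq measures newly made RNA, so these values cannot show whether the hairpin lowered the Rai1 message or protein. The extent of the knockdown was not tested. The arms are called by their labels, and directions below refer to those labels. In vehicle, 3 of the 5 linker histone genes with an adjusted p and 4 core histone genes were lower in the libraries labelled shRai1. The authors' deposited table called 7 of 57 members lower and 0 higher, against 0.73% of all genes lower and 0.126% higher. The median was -0.50 against -0.01 for all genes, and 58 of 61 members were below 0. With unadjusted p-values under 0.05, 32 members were lower and 0 higher, against 4.56% and 3.19% of all genes.

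Of these genes, Hist1h1b fell by 1.11 (SE 0.31, adjusted p 0.0449), Hist1h1e by 1.06 (SE 0.21, adjusted p 0.000413) and Hist1h1d by 0.89 (SE 0.18, adjusted p 0.00114) in the authors' deposited table. The H3 genes Hist1h3g (-0.94, SE 0.26) and Hist1h3e (-0.64, SE 0.18), the H2B gene Hist1h2bg (-0.73, SE 0.21) and the H4 gene Hist1h4k (-0.67, SE 0.18) made up the 7 in the authors' deposited table, with adjusted p-values from 0.0387 to 0.0453. Hist1h1d and Hist1h1e were called under every filter tried, while the other 5 passed or missed the threshold depending on which genes the adjustment covered. By type the median was -0.77 for H1, -0.66 for H3, -0.51 for H2A, -0.34 for H2B and -0.29 for H4.

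With either drug present, TTX or BIC, the authors' deposited DESeq2 tables called 0 of 62 members, against 0.0283% and 0.00944% of all genes. At an unadjusted p under 0.05 there were 2 members in TTX, both higher (Hist1h3b at 0.42 and Hist1h3e at 0.34 in the authors' deposited table), and 3 in BIC, all lower. Over all genes the shares were 1.36% higher and 1.94% lower in TTX, and 1.59% higher and 1.34% lower in BIC. The medians were 0.07 in TTX and -0.18 in BIC. For Hist1h1e the authors' deposited tables gave 0.08 under TTX, with a 95% interval from -0.27 to 0.42, and -0.10 under BIC, with one from -0.51 to 0.30. The authors' deposited tables gave Hist1h1b 0.52 under TTX (interval -0.03 to 1.06) and -0.42 under BIC (-1.03 to 0.19). Averaged over the treatments 0 of 61 members passed the Wald test, against 0.00548% of all genes, with 15 lower and 0 higher at an unadjusted p under 0.05, against 2.45% and 1.67% of all genes.

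**Figure D4:**
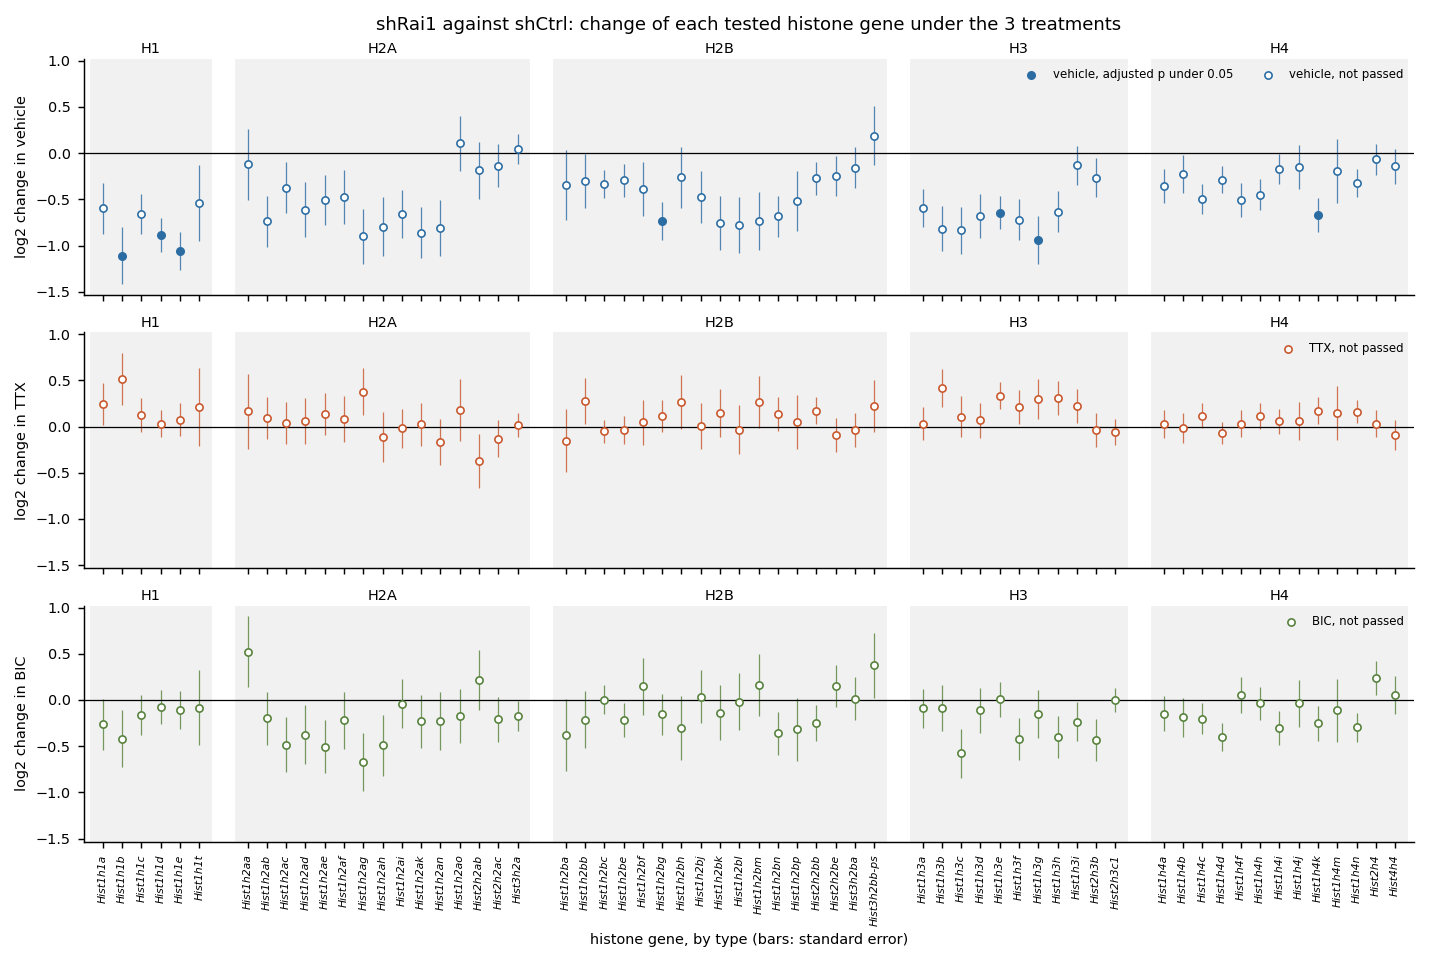
Log2 difference of shRai1 from shCtrl for each tested histone gene (vertical axis) by histone type, in vehicle, TTX and BIC, with bars for the standard error and filled points for an adjusted p under 0.05. Filled points occur in vehicle only, with 7 genes between -0.64 and -1.11, and the TTX values lie around 0 (median 0.07).

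Whether the TTX response differed between the arms was tested directly, as the shRai1 response less the shCtrl response. By the Wald test, 7 of 61 members had a higher TTX response in shRai1 and 0 a lower one, against 0.587% of all genes higher and 0.356% lower. Of the members 59 of 61 were above 0, and 25 were higher and 0 lower at an unadjusted p under 0.05, against 4.71% and 4.34% of all genes. The linker histones Hist1h1b (1.63, SE 0.42, adjusted p 0.0184), Hist1h1e (1.14, SE 0.27, adjusted p 0.00941) and Hist1h1d (0.92, SE 0.24, adjusted p 0.0183) passed. The H3 genes Hist1h3b (1.24, SE 0.32), Hist1h3g (1.24, SE 0.34) and Hist1h3e (0.98, SE 0.23) and the H4 gene Hist1h4k (0.84, SE 0.23) passed with adjusted p-values from 0.00859 to 0.0398. The medians were 0.94 for H3, 0.88 for H1, 0.63 for H2A, 0.48 for H2B and 0.34 for H4. Hist3h2a had a difference of -0.03 with a 95% interval from -0.43 to 0.38, and Hist4h4 0.05 with an interval from -0.45 to 0.54.

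The shRai1 vehicle libraries enter the TTX response in shRai1, the BIC response in shRai1, the knockdown in vehicle and both interactions. The 2 shCtrl vehicle libraries enter both drug responses in shCtrl, the knockdown in vehicle and both interactions. These values are therefore not separate observations, and a shift of either vehicle group and a difference in drug response cannot be told apart. For Hist1h1e the knockdown value was -1.06 in vehicle, 0.08 under TTX and -0.10 under BIC, and its drug responses in shRai1 were 1.18 and 0.63 in the authors' deposited tables. For Hist1h3e the knockdown values were -0.64, 0.34 and 0.01, and the drug responses in shRai1 were 1.13 and -0.01 in the authors' deposited tables. The difference between arms in the BIC response passed for 0 of 61 members by the Wald test, against 0.0219% of all genes. At an unadjusted p under 0.05 there were 6 higher in shRai1 and 0 lower, against 2.09% and 0.937% of all genes, led by Hist1h1e (0.96, SE 0.29, adjusted p 0.861) and Hist1h1d (0.82, SE 0.26).

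**Figure D5:**
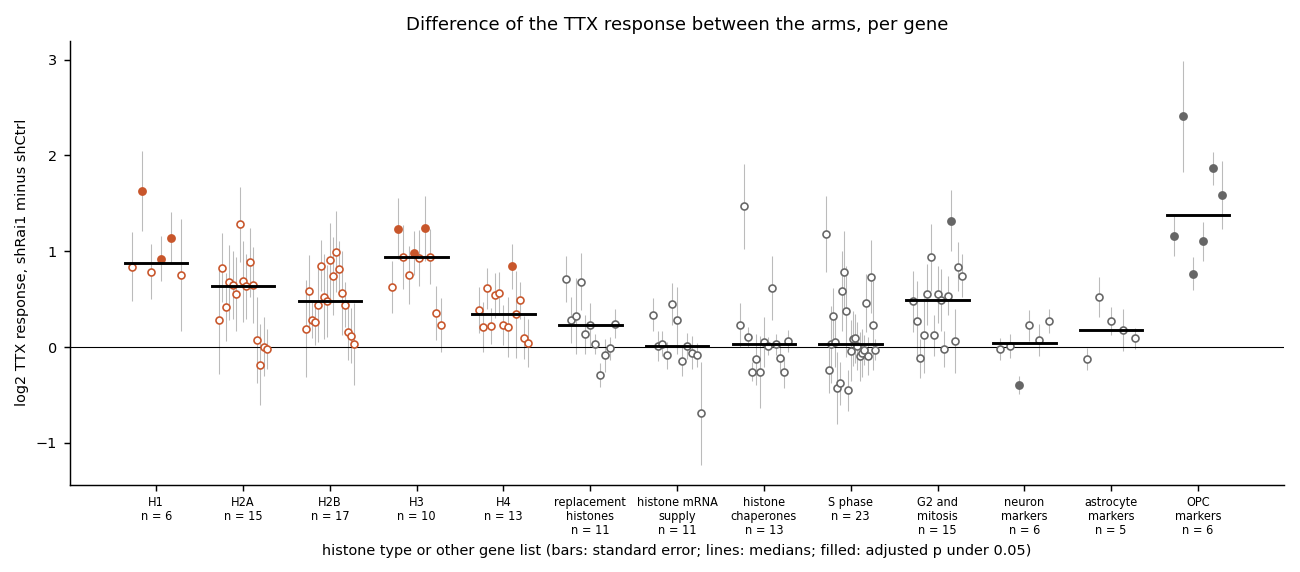
Difference of the TTX response between the arms (log2, shRai1 minus shCtrl) for each histone gene by type and for each gene of the comparison lists, with bars for the standard error, lines for medians and filled points for an adjusted p under 0.05. The H1 and H3 medians stand at 0.88 and 0.94, and the oligodendrocyte precursor markers have the highest median, 1.37.

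Markers of oligodendrocyte precursors moved in some of these comparisons. Of the 6 markers 4 were lower in shRai1 vehicle and 5 rose under TTX in shRai1, while 4 fell under TTX in shCtrl, by the authors' deposited tables. Of all genes, 0.73% were lower in shRai1 vehicle, 13.7% rose under TTX in shRai1 and 14.9% fell under TTX in shCtrl. All 6 of 6 markers passed the test of the difference in TTX response, where 0.587% of all genes were higher in shRai1. For the receptor gene Pdgfra, which defines these cells, the authors' deposited tables gave knockdown values of -1.37 in vehicle (SE 0.13), 0.50 under TTX and -0.90 under BIC, and a difference in TTX response of 1.86 (SE 0.17). The summed FPKM of the 6 markers in shCtrl was 131 in vehicle, 92.4 in TTX and 109 in BIC, with none at 0. The median of the 6 markers was -0.73 under TTX in shCtrl against 0.44 for the histone genes, and for the knockdown under TTX it was 0.50 against 0.07. Under TTX in shRai1 it was 0.78 against 1.05, and for the difference in TTX response 1.37 against 0.57. For the knockdown it was -0.84 against -0.50 in vehicle and -0.45 against -0.18 under BIC. The BIC response gave -0.25 against -0.40 in shCtrl and 0.15 against -0.07 in shRai1. The part of these cells in the histone results was not tested.

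Genes of dividing cells were read beside them. Of all genes, 0.73% were lower in shRai1 vehicle, and 0.587% had a higher TTX response in shRai1 by the test of the difference. Under TTX 11.8% of all genes rose and 14.9% fell in shCtrl, and 13.7% rose and 16.8% fell in shRai1. Of 15 G2 and mitosis genes, 3 were lower in shRai1 vehicle in the authors' deposited table, the proliferation marker Mki67 (-0.96), the topoisomerase gene Top2a (-0.72) and the spindle gene Tpx2 (-0.59). Under TTX in shRai1 the same 3 rose, by 0.80, 0.55 and 0.42 in the authors' deposited table, and in shCtrl 0 rose and 1 fell, the cyclin gene Ccnb1 (-0.70). Mki67 was the one member of this list to pass the test of the difference in TTX response (1.32). Of 23 DNA replication and S phase genes 0 were called for the knockdown under any treatment by the authors' deposited DESeq2 tables. At an unadjusted p under 0.05, 1 was lower in vehicle and 1 lower in TTX, against 4.56% and 1.94% of all genes. With TTX in shCtrl, 0 of them rose and 2 fell in the authors' deposited table, the replication clamp gene Pcna (-0.78) and the polymerase alpha gene Pola1 (-0.39). In shRai1 2 rose, the origin factor genes Gins1 (0.95) and Cdc6 (0.44), and 3 fell in the authors' deposited table. The values of the 23 genes in that arm ranged from -0.84 to 0.95. The S phase medians under TTX were -0.05 in shCtrl and 0.09 in shRai1 and those of the G2 and mitosis genes -0.21 and 0.26, against 0.44 and 1.05 for the histone genes. For the knockdown in vehicle the medians were -0.07 for S phase genes, -0.40 for G2 and mitosis genes and -0.50 for histone genes. Of the 15 G2 and mitosis genes 7 were lower with an unadjusted p under 0.05, against 4.56% of all genes. For the difference in TTX response the medians were 0.03, 0.49 and 0.57 in the same order. Here 5 of the 15 were higher with an unadjusted p under 0.05, against 4.71% of all genes. The part of dividing cells in the histone results was not tested.

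Other genes of histone supply went both ways under TTX, where 11.8% of all genes rose and 14.9% fell in shCtrl and 13.7% rose and 16.8% fell in shRai1. Among 11 genes for histone message formation, Slbp, whose product binds the stem-loop, rose by 0.64 in shCtrl and 0.58 in shRai1 in the authors' deposited tables. Lsm11, which encodes a U7 snRNP protein, fell by 1.11 and 1.25 in the authors' deposited tables. Npat, a coactivator of histone genes, did not pass in either arm (-0.18 and -0.17 in the authors' deposited tables). In all, 1 of 11 rose and 2 fell in shCtrl, and 2 rose and 2 fell in shRai1. Of 11 replacement histone genes, which are used outside DNA replication, 1 rose and 1 fell in shCtrl and 4 rose and 2 fell in shRai1. Cenpa, the centromere H3, fell by 1.49 with TTX in shCtrl and by 0.78 in shRai1, and H2afv rose by 0.46 and 0.59, in the authors' deposited tables. Of 13 histone chaperone genes, 0 rose and 2 fell in shCtrl and 2 rose and 4 fell in shRai1 in the authors' deposited tables. The authors' deposited DESeq2 tables called 0 genes of these 3 lists for the knockdown in vehicle. At an unadjusted p under 0.05, 3 replacement histones were lower there and 1 chaperone gene higher, against 4.56% and 3.19% of all genes.

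Under BIC, 2 of the 11 replacement histones rose and 3 fell in shCtrl, where 17.4% of all genes rose and 17% fell. In shRai1 4 rose and 2 fell, where 21.3% of all genes went each way. The authors' values in shCtrl went both ways: H2afz (1.06) and Cenpa (0.99) rose while H2afv (-0.89), H1f0 (-0.78) and H3f3a (-0.77) fell in the authors' deposited table. Of the S phase genes 3 rose and 0 fell under BIC in shCtrl and 4 rose and 2 fell in shRai1, and of the G2 and mitosis genes 1 and 3 rose and 0 fell, by the authors' deposited tables. Genes for histone message formation gave 1 rise and 3 falls in shCtrl and 2 rises and 3 falls in shRai1, and the chaperones 5 rises and 0 falls in shCtrl and 4 rises and 1 fall in shRai1, again by the authors' deposited tables. The summed FPKM of the replacement histones in shCtrl stayed between 442 and 469 over the conditions, while that of the clustered genes lay between 4525 and 8854. The sums of the clustered genes include paralogs whose single values are uncertain. The difference between these groups of genes was not tested.

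By position, members in all 3 groups of genes on chromosome 13 had similar medians. These groups, set apart by gaps of at least 200000 bp, hold 17, 5 and 31 members between positions 21807582 and 24026782 on build mm9. Their median log2 changes under TTX were 0.42, 0.32 and 0.44 in shCtrl and 1.17, 0.97 and 1.07 in shRai1, and their knockdown medians in vehicle were -0.66, -0.75 and -0.51. Over the Hist1 cluster the median knockdown value in vehicle was -0.59, and over the 10 tested and named genes of Hist2, Hist3 and Hist4 it was -0.15. All 7 members called for the knockdown in vehicle and all 32 under an unadjusted p of 0.05 lay in Hist1. That cluster held 47 of the 57 members with an adjusted p and 51 of the 61 members tested and named. The difference in TTX response was above 0 for 51 of 51 Hist1 genes (median 0.64) and for 8 of 10 genes elsewhere (median 0.07). The clusters were not tested against each other.

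Markers of the labelled cell types were present. In shCtrl the summed FPKM was 428 to 495 for 6 neuron markers and 118 to 157 for 5 astrocyte markers over the 3 conditions, with none at 0. The sums were 20.0 to 29.8 for 4 microglia markers and 0.521 to 0.706 for 3 endothelial markers, of which 1 was at 0 in some condition. Under TTX, 4 of the 6 neuron markers fell and 1 rose in the authors' deposited table for shCtrl, and 2 of the 5 astrocyte markers fell. In shRai1 3 neuron markers fell and 0 rose, and 1 astrocyte marker rose and 1 fell, by the authors' deposited table. Over all genes the TTX shares were 11.8% higher and 14.9% lower in shCtrl, and 13.7% and 16.8% in shRai1. All 6 neuron markers were called with BIC in each arm, 3 higher and 3 lower, in the authors' deposited tables. Of all genes, 17.4% rose and 17% fell with BIC in shCtrl, and 21.3% went each way in shRai1. In shCtrl 2 of the 4 microglia markers also rose with BIC, and 1 astrocyte and 1 oligodendrocyte precursor marker fell, in the authors' deposited table. In shRai1 1 microglia and 1 astrocyte marker rose, in the authors' deposited table. The part of these cells in the BIC results was not tested.

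A remainder of 8 tested members was called in no deposited comparison. These were Hist1h1t, Hist1h2aa, Hist1h2ao, Hist1h2ba, Hist2h2ab, Hist2h2be, Hist2h3c1 and Hist3h2bb-ps. Hist1h1t, a linker histone gene known from the testis, was at 2.18 FPKM in vehicle, at 2.56 with TTX and at 3.17 with BIC, the lowest of the H1 genes. Over all tested members the median mean count was 63.7, against 107 for all genes tested, and 35 had a mean count of at least 50. Of the 8 uncalled members, Hist2h2be had a mean count of 70.4 and the others at most 29.7.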

How the data were processed

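Bru-seq values of 16 libraries in 6 groups were used, and 12 ChIP-seq samples were not used here. Per the submitters' processing notes, reads were processed with TopHat2 2.1.0, Bowtie2 2.2.6 and DESeq2 (version not given) on build mm9; the settings and the annotation are not given in the sources used here. The authors deposited 7 DESeq2 tables, each with a mean normalized signal per gene, the log2 change and, as score columns, its standard error and Wald statistic, and a table of FPKM values with 1 value and bounds per condition, per the file headers. No column of another series was found (0). The depth per library is unknown, and with no values per library the tests rest on the authors' fit.

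The table for the knockdown in vehicle carries no gene names. They were recovered from its mean counts, each unique among the tables, for 20107 of 21192 tested genes; the recovered values equal those implied by the other tables to within 1e-09. Differences between arms and averages over arms were computed with Python 3.11.15, numpy 2.4.6, pandas 2.3.3 and scipy 1.17.1 as two-sided Wald tests from deposited log2 changes and standard errors of contrasts that share no library, with Benjamini-Hochberg adjustment over the 18241 named genes whose mean FPKM was at least 0.1, and were tested on simulated data. Figures were drawn with matplotlib 3.10.9. The called threshold is an adjusted p under 0.05. Intervals of 95% are the change plus or minus a normal multiple of its standard error. GEO's labels call replicates separate pools of embryos.

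The text names Hist1h1b, the 30 members with the smallest adjusted p, members whose arms differed, the 5 highest by FPKM, and up to 6 genes of each other list; further names were chosen after their values were seen. The members and lists were chosen with earlier results of these data known. Alternatives were other thresholds, filters, centring and standard errors.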

Additional observations from a re-analysis of the deposited data

Results flagged for a closer look

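For 7 histone genes the TTX response differed between the arms by the test of the difference itself, always with the higher response in shRai1. This was a Wald test with Benjamini-Hochberg adjustment over 18241 genes, of which 0.587% had a higher response in shRai1. The differences on the log2 scale were 1.63 for Hist1h1b, 1.14 for Hist1h1e, 0.92 for Hist1h1d, 1.24 for Hist1h3b, 1.24 for Hist1h3g, 0.98 for Hist1h3e and 0.84 for Hist1h4k. The vehicle libraries of both arms enter these differences and the knockdown values in vehicle alike, and all 6 oligodendrocyte precursor markers differed between the arms in the same direction; the part of these cells was not tested.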

How the results depend on the processing

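Only centring changed a log2 value, by at most 0.0438, so the settings could hardly reverse the direction of a called gene. Leaving out replicates was not run and no paired analysis was possible because the deposited tables hold no value per library. At a threshold of 0.01 the members called numbered 12 for shCtrl TTX (21 at 0.05), 4 for shCtrl BIC (10), 4 for shRai1 BIC (9), 2 for the vehicle knockdown (7), 2 for the difference in TTX response (7) and 8 for the average BIC response (15). With genes of a mean count of at least 50 alone, 34 members rose under TTX in shRai1 (53), because fewer members were tested. The knockdown in vehicle gave 2 members with no filter and 3 when the mean FPKM had to reach 0.1 (7), and of its 7 calls Hist1h1d and Hist1h1e were kept at 0.05 in every setting, while Hist1h1b ranged in adjusted p from 0.0449 to 0.0668. The 7 differences in TTX response were kept at 0.05 in every setting that tested them, also with standard errors from the knockdown tables; Hist1h1b and Hist1h3g were not tested when the mean count had to reach 50. The other 77 settings left the count within 1.5 times. The counts by type and list, the medians and the single genes were also followed. Of these, 78 counts moved by more than that, 39 of them at a threshold of 0.01, 63 calls missed the threshold and 1999 values stayed. Reversal was scored for single genes alone and was found for 0. Centring moved no comparison by more than 0.0438 on the log2 scale, and ended the BIC calls of Hist1h4f and Hist1h4k in shCtrl, of Hist2h2ac and Hist1h4d in shRai1, and of Hist1h2bm (adjusted p 0.0571) and Hist3h2ba (0.0574) in the average. With no filter Hist1h4k also missed the threshold in shCtrl BIC, and Hist2h4 in shCtrl TTX (0.0552). Counts by type and list under these settings were added after seeing the data. No value per library limits every statement on replicate spread, and shCtrl vehicle and BIC had 2 libraries each.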
